A study of Mus musculus with 4 samples.

Results

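Bidirectional promoters are stretches of DNA from which 2 neighbouring genes on opposite strands are transcribed away from each other. KDM5C (also called SMCX) peaks at such promoters in wild-type (WT) cells are described here. Pairs were formed from protein-coding genes of the GENCODE M1 annotation of the mouse mm9 assembly whose outermost transcription start sites (TSSs) lay at most 1 kb apart, and a WT peak on chromosomes 1 to 19 or X was counted when it overlapped the interval between the TSSs or the 500 bp beyond either of them. The annotation held 808 such pairs, made from 1599 of 22350 protein-coding genes. Of 6916 WT peaks on these chromosomes, 306 lay at a bidirectional promoter. No measured value of a peak other than its position was used to choose them.

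KDM5C is an X-encoded histone demethylase of the JmjC family that takes off methyl groups at lysine 4 of histone H3, a modification carried by active promoters. Bidirectional promoters are common in mammalian genomes, are mostly rich in CpG dinucleotides, and often drive housekeeping genes such as those for DNA repair, metabolism and histones. Their 2 genes share regulatory DNA but initiate transcription at separate TSSs, so the first transcribed sequence of each gene lies on either side of a short common core.

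Binding was measured with ChIP-Seq, the sequencing of DNA recovered from sheared chromatin with an antibody, here against KDM5C. The mouse epiblast-like cells were at day 2 of differentiation and were derived from male embryonic stem cells of the C57BL/6J strain, per the labels, whereas the study's methods name 129/Sv and mixed backgrounds for its mice. WT and KO cells both carried a truncated Tsix, the antisense repressor of Xist, on their single X chromosome. KO cells lacked in addition the Kdm5c exons that encode the JmjC domain, a deletion after which little protein remains. Each genotype was listed with 1 immunoprecipitate and 1 input sample, whereas the study's methods name pooled WT replicates and a single KO sample. Only 1 peak list per genotype was used, with no replicate, so no test between groups was made and the intervals given are exact Clopper-Pearson 95% intervals. They cover counting error only and take promoters or peaks as independent. The lists hold no read counts, and for depth the study's reporting form states only a minimum per sample, so the depth of each library is not known exactly here. The lists measure no RNA, so neither the cell type nor the loss of Kdm5c could be checked in them.

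To show what these promoters look like, the sequence between the 2 TSSs is given for the 6 pairs of highest peak score among those with TSSs 30 to 300 bp apart. The sequences are from the NCBIM37 reference (mm9) and are written 5′ to 3′ on the plus strand, so the gene named first is transcribed to the left and the gene named second to the right. Capitals mark matches on either strand to 8 motifs searched: the E-box CACGTG, the ETS motif CCGGAAG, the E2F motif TTCCCGC, the NRF1 motif GCATGCGC, the YY1 motif AGATGGCG, the CCAAT box CCAAT, the GC box GGGCGG and the TATA box TATAAA.
Gpc2/Stag3 (chr5:138721233-138721468): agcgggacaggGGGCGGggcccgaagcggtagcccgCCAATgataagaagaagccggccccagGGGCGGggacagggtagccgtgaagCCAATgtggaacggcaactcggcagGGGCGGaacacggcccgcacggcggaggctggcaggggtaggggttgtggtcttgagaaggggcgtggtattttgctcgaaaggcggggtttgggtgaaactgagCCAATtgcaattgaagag
B3galt6/Sdf4 (chr4:155366787-155366981): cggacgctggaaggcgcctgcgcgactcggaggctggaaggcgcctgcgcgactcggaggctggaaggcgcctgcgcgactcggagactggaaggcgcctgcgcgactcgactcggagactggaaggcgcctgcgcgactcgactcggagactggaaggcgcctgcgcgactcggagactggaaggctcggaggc
Recql/Golt1b (chr6:142335607-142335741): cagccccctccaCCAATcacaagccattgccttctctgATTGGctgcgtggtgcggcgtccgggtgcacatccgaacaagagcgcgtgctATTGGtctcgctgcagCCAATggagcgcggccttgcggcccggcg
Cc2d1a/4930432K21Rik (chr8:86671796-86671924): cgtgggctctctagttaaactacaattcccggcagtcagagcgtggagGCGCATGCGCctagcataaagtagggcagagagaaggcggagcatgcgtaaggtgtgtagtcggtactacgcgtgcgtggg
1810031K17Rik/Fam134a (chr1:75139271-75139360): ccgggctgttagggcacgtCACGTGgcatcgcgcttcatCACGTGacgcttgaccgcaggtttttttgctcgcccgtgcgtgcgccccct
Phf7/Bap1 (chr14:32064404-32064675): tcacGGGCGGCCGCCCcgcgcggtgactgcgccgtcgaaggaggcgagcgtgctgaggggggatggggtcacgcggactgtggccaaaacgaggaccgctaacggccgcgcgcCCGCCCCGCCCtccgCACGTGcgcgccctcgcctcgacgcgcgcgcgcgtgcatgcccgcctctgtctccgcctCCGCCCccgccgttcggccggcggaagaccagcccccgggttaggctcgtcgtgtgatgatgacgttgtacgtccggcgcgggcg
These cores shared no single motif. The Gpc2/Stag3 core held 3 GC boxes and 3 CCAAT boxes, and the Recql/Golt1b core held 4 CCAAT boxes. The Cc2d1a/4930432K21Rik core held the NRF1 motif in both orientations, which overlapped in a palindrome. The 1810031K17Rik/Fam134a core, only 90 bp long, held 2 E-boxes. The B3galt6/Sdf4 core matched none of the motifs and was built from a repeated word of 16 bases, ctggaaggcgcctgcg, present in 6 copies.

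At most promoters the summit of the peak, where the ChIP signal was highest, did not lie in this core. The 101 bp centred on the summit are therefore shown for the 3 members of highest score, in the same notation.
Gpc2/Stag3, summit (chr5:138721609-138721709): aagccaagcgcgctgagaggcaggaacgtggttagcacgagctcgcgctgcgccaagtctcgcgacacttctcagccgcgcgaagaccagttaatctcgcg
B3galt6/Sdf4, summit (chr4:155366457-155366557): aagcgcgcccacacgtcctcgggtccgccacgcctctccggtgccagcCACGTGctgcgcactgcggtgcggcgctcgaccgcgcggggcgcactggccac
4632404H12Rik/Ube2q1, summit (chr3:89577211-89577311): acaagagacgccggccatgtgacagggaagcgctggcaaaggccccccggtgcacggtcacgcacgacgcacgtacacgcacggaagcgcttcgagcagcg
The first lay 191 bp inside Stag3 and the second 280 bp inside B3galt6, whereas the summit of the third lay between its TSSs, 99 bp from the nearer one. An E-box stood close to the centre of the B3galt6 summit. None of the 8 motifs was present in the other 2 windows.

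For contrast, the cores of 2 divergent pairs well known from textbooks, neither of which had a WT peak, are given in the same way.
Col4a4/Col4a3 (chr1:82583424-82583496): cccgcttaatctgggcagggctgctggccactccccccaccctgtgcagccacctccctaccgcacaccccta
Mrps12/Sars2 (chr7:29526839-29527010): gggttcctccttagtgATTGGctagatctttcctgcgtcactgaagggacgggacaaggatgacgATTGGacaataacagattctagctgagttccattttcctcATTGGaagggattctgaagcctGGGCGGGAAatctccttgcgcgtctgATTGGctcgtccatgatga
The core between Col4a4 and Col4a3, which encode chains of the basement membrane collagen IV, held 2 CpG dinucleotides in 73 bp. The core of Mrps12/Sars2, a mitochondrial ribosomal protein and a mitochondrial seryl-tRNA synthetase, held 4 CCAAT boxes and a GC box that overlapped an E2F motif. Motifs of the same kinds thus stood in bound and in unbound cores.

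To ask how often KDM5C was found at bidirectional promoters, the share of pairs with a WT peak was compared with the share of single promoters bound in the same list. A WT peak was present at 299 of 808 bidirectional promoters, or 37% (33.7 to 40.4). Single promoters were those of protein-coding genes in no pair and with no other protein-coding TSS within 1 kb, and the CpG-rich ones had an observed-to-expected CpG ratio of 0.6 or more, with 50% GC or more, within 500 bp of the TSS in both directions. Of 7779 single CpG-rich promoters, 3271 had a WT peak within that window, or 42% (40.9 to 43.2). The bound share of bidirectional promoters was thus lower than that of single CpG-rich promoters, and higher than the 21.4% of all 22350 protein-coding promoters.

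The windows of pairs are wider than those of single promoters, and not all pairs are CpG-rich, so both were made alike. Within 500 bp of the midpoint between the TSSs, a window as wide as that of a single promoter, 294 pairs were bound (36.4%, 33.1 to 39.8). By the limits used for single promoters, 674 pairs (83.4%) were CpG-rich, against 39.6% of 19636 single promoters. Of the CpG-rich pairs, 270 were bound within the equal window, or 40.1% (36.3 to 43.9), an interval that overlapped that of single CpG-rich promoters. Single promoters weighted to the CpG ratios of these pairs had a bound share of 42.8%. Counting each of the 1599 genes by its own TSS gave 580 bound genes (36.3%, 33.9 to 38.7). Some pairs share a gene or lie side by side, and after their windows were merged 295 of 791 loci were bound.

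Bidirectional promoters with more CpG were bound more often, with intervals that did not overlap between the lowest and the highest class. Among pairs with a GC content of at least 50%, the bound share was 14.7% (8.3 to 23.5, 95 pairs) at a CpG ratio under 0.6, 28% (20.3 to 36.7, 125 pairs) from 0.6 to 0.7, and 36.2% (29.7 to 43.2, 207 pairs) from 0.7 to 0.8. It was 42.4% (35.6 to 49.4, 210 pairs) from 0.8 to 0.9 and 51% (41 to 60.9, 104 pairs) from 0.9 to 1. Of the 28 pairs with a ratio of 1 or more, 18 were bound (64.3%, 44.1 to 81.4). Single promoters went from 9.24% in the lowest class to 48.3% (42.7 to 53.9) in the highest, and in each of the 6 classes the intervals of the 2 kinds of promoter overlapped.

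**Figure D1:**
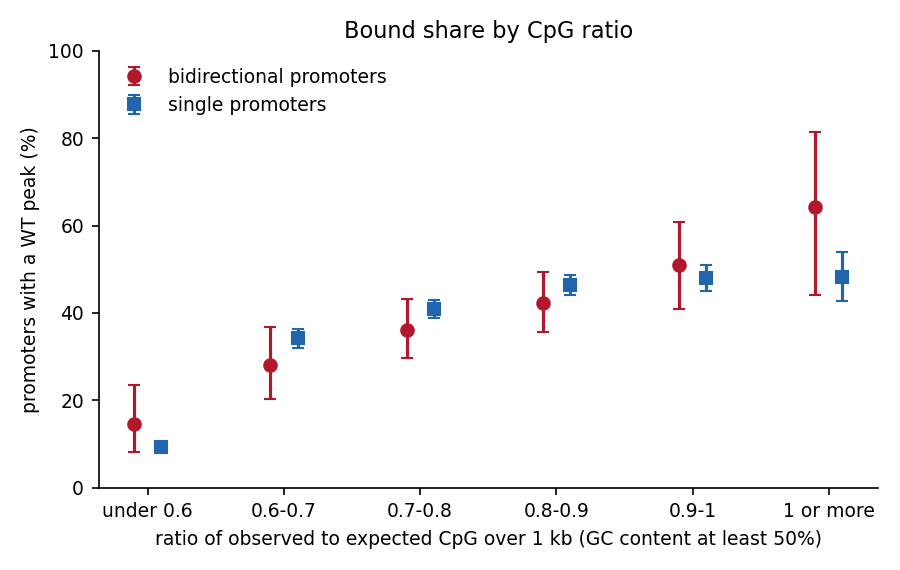
Percent of promoters with a WT peak (vertical axis) by ratio of observed to expected CpG over 1 kb (horizontal axis), for bidirectional promoters (red circles) and single promoters (blue squares) with a GC content of at least 50%. Bars are exact 95% intervals, which overlap in every class, and the bidirectional share goes from 14.7% to 64.3%.

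Bound pairs had a median CpG ratio of 0.819 and a median GC content of 61.9%, against 0.755 and 59.1% for unbound pairs. Pairs outside the CpG-rich class were still bound in 24 of 134 cases within the equal window (17.9%, 11.8 to 25.5), against 550 of 11857 single promoters that were not CpG-rich (4.64%, 4.27 to 5.03). These classes differ in composition, since the single class reaches far into CpG-poor sequence, and at a CpG ratio under 0.6 with at least 50% GC the shares were 14.7% and 9.24%, as given above. The member of highest score in a pair that was not CpG-rich was at Lypd4/Dmrtc2, with a score of 749 and a CpG ratio of 0.568 (Dmrtc2 encodes a DMRT-family factor of the testis). It was singled out after its values were seen.

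The bound share was highest where the TSSs lay close together, although the intervals overlapped. The TSSs were a median of 125 bp apart in bound pairs (quartiles 69 and 237) and 151 bp in unbound pairs (quartiles 78 and 285). Within the equal window, 43.2% of the 111 pairs with TSSs at most 50 bp apart were bound (33.9 to 53), 39.6% of 187 pairs at 51 to 100 bp (32.5 to 47) and 39.7% of 224 pairs at 101 to 200 bp (33.3 to 46.5). The share was 32.2% of 115 pairs at 201 to 300 bp (23.8 to 41.5), 29.5% of 88 pairs at 301 to 500 bp (20.3 to 40.2) and 24.1% of 83 pairs at 501 to 1000 bp (15.4 to 34.7). In the full window, which also holds the 500 bp beyond each TSS of distant pairs, the share of the farthest class was 28.9% (19.5 to 39.9). The intervals of the nearest and the farthest class overlapped in either window. Among CpG-rich pairs alone the share was 46.4% in the nearest class (36.2 to 56.8) and 31.9% of 47 pairs in the farthest.

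**Figure D2:**
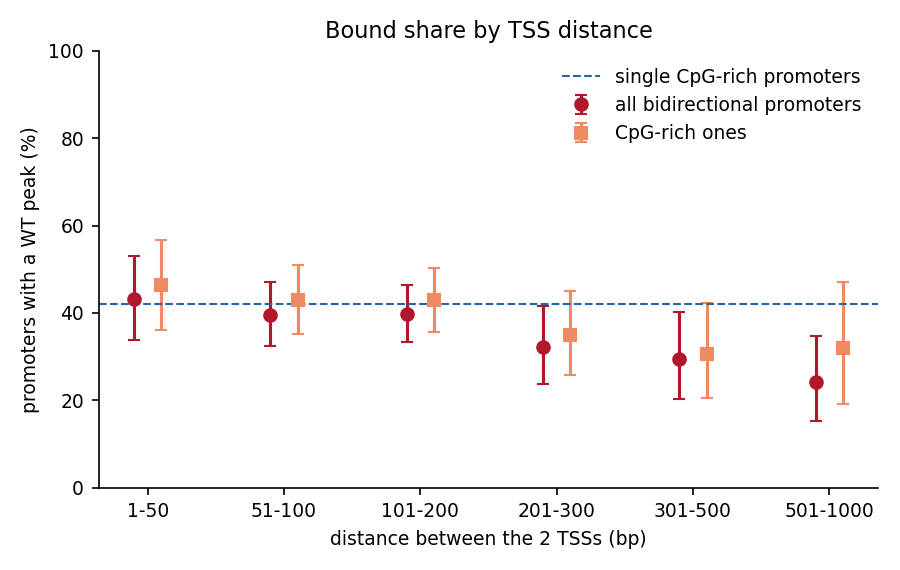
Percent of bidirectional promoters with a WT peak within 500 bp of the midpoint between their TSSs (vertical axis) by the distance between the TSSs (horizontal axis), for all pairs (red circles) and CpG-rich pairs (orange squares), with exact 95% intervals. The dashed line is the 42% of single CpG-rich promoters, and the share of all pairs goes from 43.2% at the left to 24.1% at the right.

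At the limit of 1 kb, the pairs just inside were Btf3l4/Txndc12 and Pdzd7/Sfxn3, both 987 bp apart and without a peak. The pairs just outside were Nacc1/Trmt1 at 1004 bp, Serpina7/4930513O06Rik at 1007 bp and Atg14/Gm6616 at 1008 bp, and none of them had a peak.

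Peaks were called from uniquely mapped reads, so a promoter whose sequence occurs elsewhere in the genome can be missed. The words of 50 bp, the length of the reads, were unique in the genome throughout the window in 676 of 808 pairs (83.7%). Where at least 90% of words were unique, 291 of 772 pairs were bound (37.7%, 34.3 to 41.2). The share of single CpG-rich promoters was 3193 of 7499 (42.6%, 41.5 to 43.7). These intervals did not overlap, but not all of the pairs were CpG-rich. Of the 36 pairs with fewer unique words, 8 were bound (22.2%, 10.1 to 39.2), and 13 of these 36 were histone pairs.

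The second question was where between or around the 2 TSSs the peaks had their summits. Only 42 of 306 summits lay between the TSSs (13.7%, 10.1 to 18.1), and the other 264 (86.3%, 81.9 to 89.9) lay downstream of a TSS, inside the transcribed sequence of a gene. The stretch between the TSSs made up a mean of 14.7% of the window, so summits were about as frequent there as its length alone would give. Summits fell on the side of the minus-strand gene at 131 members (42.8%) and on that of the plus-strand gene at 133 (43.5%).

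Downstream summits stood a median of 190.5 bp inside the nearer gene (quartiles 104 and 275). The 42 summits between the TSSs were a median of 34.5 bp from the nearer TSS (quartiles 17.25 and 96.75). Measured from the midpoint of the pair, summits were a median of 235.5 bp away. Per 10 kb of sequence, the density of summits was 2.46 between the TSSs, 4.02 in the first 100 bp downstream, 4.95 from 101 to 200 bp, 3.9 from 201 to 300 bp, 1.79 from 301 to 400 bp and 0.619 from 401 to 500 bp. The highest density was therefore in the second 100 bp of a gene, on average over both sides.

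**Figure D3:**
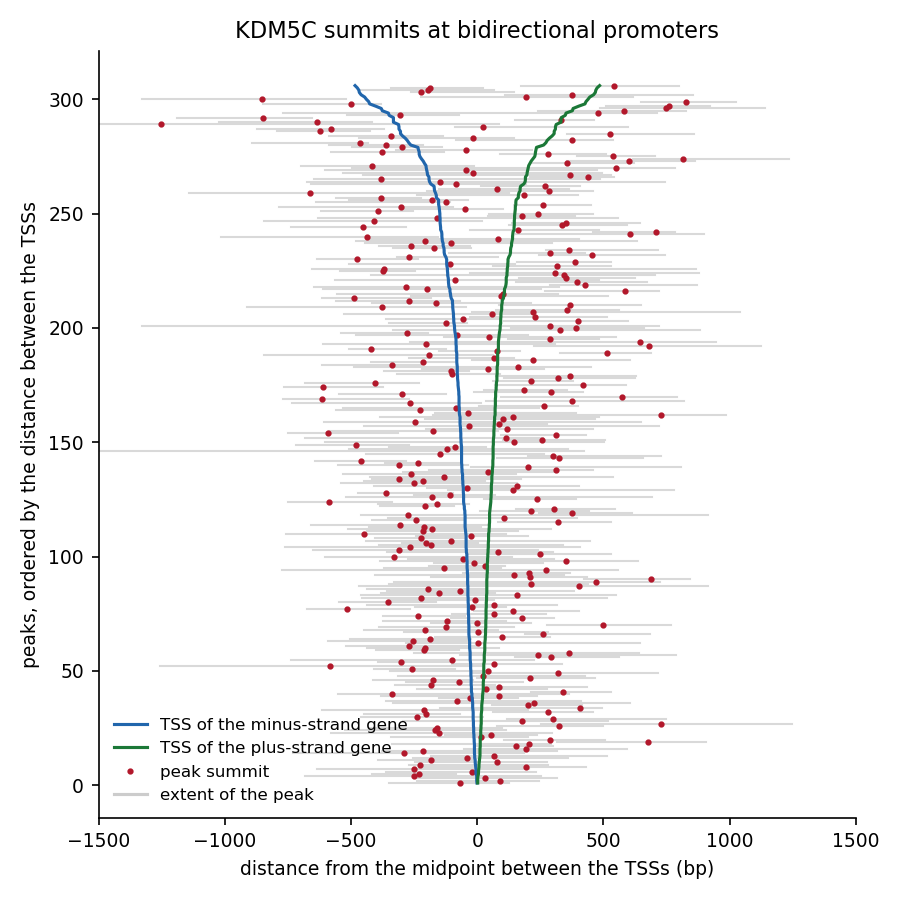
Each of the 306 members is 1 line, ordered upwards by the distance between its TSSs, and the horizontal axis is the distance in bp from the midpoint between them. Grey lines show the extent of the peak, red points its summit, and the blue and green curves the TSSs of the minus-strand and plus-strand gene. Summits sit on both sides outside the curves at 264 members and between them at 42, and 1 summit, at Mesdc1/Mesdc2, lies beyond the drawn range of 1500 bp on either side.

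Single CpG-rich promoters, with 1 gene, had the same place of highest density. Of the 3343 peaks there, 29.7% had the summit upstream of the TSS (28.2 to 31.3), and summits downstream were a median of 213 bp inside the gene (quartiles 127 and 328). Their density was 5.41 per 10 kb in the first 100 bp downstream, 8.68 from 101 to 200 bp and 7.19 from 201 to 300 bp, and 3.15 in the 100 bp upstream. The density given for pairs was averaged over 2 downstream flanks and over all 808 pairs, CpG-rich or not, so it is not directly comparable. Per 100 promoters, with both flanks of a pair summed, CpG-rich pairs had 8.75 summits in the first 100 bp downstream, 11 from 101 to 200 bp and 8.46 from 201 to 300 bp. Single CpG-rich promoters had 5.41, 8.68 and 7.19 on their downstream side alone. Their upstream side held a further 3.15, 2.8 and 2.66 per 100 promoters at the same distances. The values of pairs and of the downstream side of single promoters thus cover unequal lengths of sequence.

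**Figure D4:**
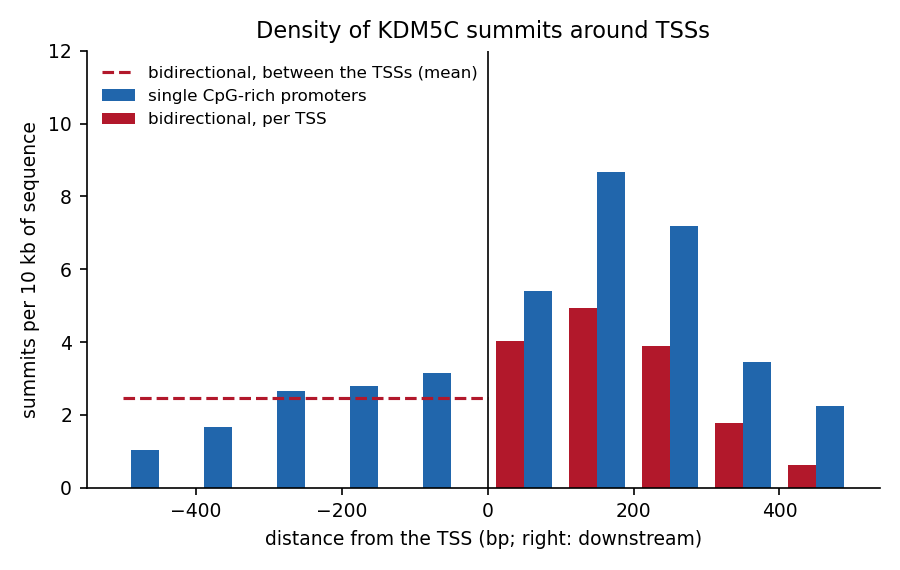
Number of summits per 10 kb of sequence (vertical axis) in 100 bp bins around the TSS (horizontal axis, downstream to the right), for single CpG-rich promoters (blue) and, over both flanks, for bidirectional promoters (red). The dashed line is the mean density of 2.46 between the TSSs of pairs, whose true length varies, and both kinds of promoter are highest from 101 to 200 bp downstream.

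With TSSs farther apart, more of the window lies between them, and so did more of the summits. The counts were 0 of 47 members at 1 to 50 bp, 9 of 73 at 51 to 100 bp, 11 of 92 at 101 to 200 bp, 6 of 39 at 201 to 300 bp, 8 of 28 at 301 to 500 bp and 8 of 27 at 501 to 1000 bp. The stretch between the TSSs made up a mean of 2.79%, 7%, 12.7%, 20.4%, 27.5% and 41.9% of the window in these classes, and each of these values lay inside the exact interval of the share of summits, which was 0 to 7.55% in the nearest class and 13.8 to 50.2% in the farthest. For pairs at least 200 bp apart the share was 22 of 94 (23.4%, 15.3 to 33.3). Both TSSs were inside the peak at 141 members (46.1%), 1 was inside at 80 and neither was at 85. Of the 27 members at the greatest distances, 1 spanned both TSSs, against 32 of 47 at the smallest.

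The gene on whose side the summit lay tended to be the one with more CpG. When CpG dinucleotides were counted in the 500 bp downstream of each TSS, the summit was on the side with more of them at 176 of 259 members with a downstream summit and unequal counts (68%, 61.9 to 73.6). Where the counts differed by 10 or more it was so at 149 of 204 members (73%, 66.4 to 79). Over all 306 members, the position of the summit relative to the midpoint correlated with the difference in CpG counts with a Spearman's rho of 0.434, given as a description, because the members come from 1 list. Dclre1a/Nhlrc2, chosen after its values were seen, shows the pattern, with 9 CpG on the side of Dclre1a, a nuclease of DNA crosslink repair, 48 on that of Nhlrc2, and the summit 226 bp inside Nhlrc2. Aimp2/Pms2 is close to even, with 38 CpG in Aimp2 and 31 in the mismatch repair gene Pms2, and its summit lay 205 bp inside Aimp2.

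By annotation, 80 summits were in coding sequence (26.1%), 124 in another part of an exon (40.5%), 60 in an intron (19.6%) and 42 in no exon or intron of either gene.

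A second peak was present at 11 of the 299 bound pairs, and no pair had more. In 9 of these 11 pairs the 2 summits were on opposite sides, each inside its own gene. At Pcid2/Cul4a the peak in Pcid2 had a score of 165 with its summit 109 bp inside, and the peak in Cul4a, the scaffold of a ubiquitin ligase, a score of 64 with its summit 433 bp inside. At Cep57/Fam76b both flanks were nearly equal, with a score of 116 in Fam76b and 109 in Cep57, a centrosomal protein. Tmem135/Fzd4 was uneven, with 279 in the Wnt receptor gene Fzd4 and 39 in Tmem135. The other 6 were Txndc9/Eif5b (78 and 46), Gm10517/Trp53bp2 (70 and 99), Exd1/1500003O03Rik (87 and 101), Hist1h2an/Hist1h2bp (58 and 60), Mzt1/6720463M24Rik (74 and 205) and Nfya/AI314976 (79 and 50). At Lyzl4/Vipr1 and Hist1h2ba/Hist1h2aa, 1 of the 2 summits lay between the TSSs.

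The peaks at bidirectional promoters had the same median score as those at single CpG-rich promoters. The deposited score is 10 times the −log10 of the q-value, so a larger score is stronger evidence for a peak. Its median was 93 in members (quartiles 54.25 and 172, range 12 to 1730), 93 in peaks at single CpG-rich promoters (quartiles 53 and 183.5) and 82 in the whole list. The fold enrichment over input had medians of 3.76, 3.84 and 3.72, and the width medians of 531.5, 564 and 524 bp. Scores at or above the 90th percentile of the list, 320, were found in 40 members (13.1%), against 12.2% of the peaks at single promoters. Within members the score was nearly unrelated to CpG ratio (rho 0.0628) and to TSS distance (rho 0.0185), and went with the width of the peak (rho 0.587, each over the 306 members of 1 list).

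The strongest member, at Gpc2/Stag3 (chr5:138721322-138722227), scored 1730 and was enriched 15.7-fold over input. Stag3 encodes a cohesin subunit of meiosis and Gpc2 a cell-surface glypican, and the summit was on the side of Stag3. The member at B3galt6/Sdf4 (chr4:155365972-155366839) scored 1552 and was enriched 13.5-fold, with its summit in the coding sequence of B3galt6, a galactosyltransferase of proteoglycan synthesis. The member at 4632404H12Rik/Ube2q1 (chr3:89576687-89577540), where Ube2q1 is a ubiquitin-conjugating enzyme, scored 1471, was enriched 15.5-fold and had its summit between the TSSs. All 3 stood far above the median score of 93.

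Recql/Golt1b followed with a score of 1186 and a summit 34 bp outside Recql, a DNA helicase, between the TSSs. The summit at Cc2d1a/4930432K21Rik (1148) was 82 bp inside 4930432K21Rik, that at 1810031K17Rik/Fam134a (1105) 60 bp inside 1810031K17Rik, and that at Mrto4/C230096C10Rik (1101) 247 bp inside Mrto4, a ribosome assembly factor. Phf7/Bap1 had a score of 1024, with the summit between the TSSs, 32 bp from that of Phf7. Phf7 is a PHD finger gene of male germ cells and Bap1 a deubiquitinase of histone H2A. At Mesdc1/Mesdc2 (897) the peak was 2570 bp wide and its summit 1652 bp inside Mesdc1, the farthest of all members. At Pus7l/Irak4 (882) it was 256 bp inside Pus7l, beside the Toll-like receptor kinase gene Irak4. Of these 10 members, 3 had the summit between the TSSs.

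The weakest members were at Jmjd6/1110005A03Rik (score 12), Tmed7/Eif1a (14) and Dak/Ddb1 (17), with fold enrichments of 2.03, 2.34 and 2.19. Ddb1 encodes the adaptor of CUL4 ubiquitin ligases and Jmjd6 a JmjC-domain hydroxylase. Their summits lay 226, 204 and 18 bp inside 1110005A03Rik, Eif1a and Ddb1.

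Pairs were then grouped by lists of genes, which were chosen with earlier results of these data known. Lists of fewer than 10 pairs give very wide intervals, and no list was tested. Of 45 pairs with a gene of DNA replication and repair, 21 were bound (46.7%, 31.7 to 62.1), beside 37% of all pairs, with a median score of 109. Single CpG-rich promoters of this list were bound at 44 of 77 (57.1%, 45.4 to 68.4). The summit was on the side of the listed gene at 7 members, on that of its neighbour at 10 and between the TSSs at 4. The strongest were Recql/Golt1b (1186), Osgep/Apex1 (509), with the summit 33 bp inside Osgep and not in the base excision repair nuclease gene Apex1, and Aimp2/Pms2 (394).

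Germ line genes formed 5 pairs, of which 3 were bound (60%, 14.7 to 94.7), and 28 of their 31 single CpG-rich promoters were bound (90.3%, 74.2 to 98). The bound pairs were among the strongest members, with scores of 1730 at Gpc2/Stag3, 805 at Smc1b/Ribc2 and 669 at Ddx25/Pus3. All 3 summits were on the side of the germ line gene. They lay 191 bp inside Stag3, 14 bp inside Smc1b, another meiotic cohesin gene, and 86 bp inside Ddx25, an RNA helicase of the testis. That side also held more CpG, with 39 against 25 at Stag3, 29 against 18 at Smc1b and 30 against 16 at Ddx25. Among the 259 members compared by CpG count above, 68% had the summit on the richer side. Outside the list, the summit lay between the TSSs at Phf7/Bap1 and inside Lypd4 at Lypd4/Dmrtc2. The unbound pairs of the list were Gamt/Dazap1 and Rad51c/Tex14. Germ line genes had already been seen to carry strong peaks in these data, so the list is no independent evidence.

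Replication-dependent histone genes formed 14 pairs, mostly an H2A gene beside an H2B gene, and 6 were bound (42.9%, 17.7 to 71.1). Of their 22 single CpG-rich promoters 3 were bound (13.6%, 2.91 to 34.9). The 8 peaks were weak, with scores from 17 to 95 and a median of 59. Of the 8 summits, 7 lay downstream of a TSS, beside 86.3% of all members. They lay inside a histone gene because both genes of each bound pair were histone genes. The strongest were Hist1h2ak/Hist1h2bn (95), Hist2h2ac/Hist2h2be (92) and Hist1h2bf/Hist1h2ad (61). Histone genes are near-identical copies, so these values are uncertain. Only 58.6% of words were unique at Hist1h2ak/Hist1h2bn and 85.3% at Hist2h2ac/Hist2h2be, and at Hist1h2bq/Hist1h2ao and Hist1h2ap/Hist1h2br none was, so no uniquely mapped read could lie wholly within those windows.

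Genes of oxidative phosphorylation formed 21 pairs, of which 8 were bound (38.1%, 18.1 to 61.6), beside 13 of 40 single promoters (32.5%). The strongest were Sdha/Ccdc127 (143), Ndufa1/Rnf113a1 (98) and Ndufa8/Morn5 (76), all with the summit on the side of the respiratory chain gene. Over all 8 peaks of this list, the summit was on the side of the listed gene at 5. It was on that of its neighbour at 2 and between the TSSs at 1. Mitochondrial ribosomal protein genes were bound at 3 of 16 pairs (18.8%, 4.05 to 45.6) and 13 of 33 single promoters (39.4%), the bound pairs being Helq/Mrps18c (89), Zfp661/Mrps5 (59) and Mrpl41/Pnpla7 (28). None of the 8 pairs with a cytosolic ribosomal protein gene was bound, which allows a share of up to 36.9%, whereas 28 of 62 single promoters of this list were (45.2%, 32.5 to 58.3). The pairs of Zfp zinc finger genes were bound at 3 of 17 (17.6%, 3.8 to 43.4), at Fiz1/Zfp524 (101), Zfp661/Mrps5 (59) and Zfp277/Dock4 (28), against 57 of 157 single promoters (36.3%). Aminoacyl-tRNA synthetase genes were bound at 2 of 7 pairs, S100pbp/Yars (68) and Kars/Terf2ip (48), and 12 of 19 single promoters (63.2%). In each list the intervals of pairs and single promoters overlapped.

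**Figure D5:**
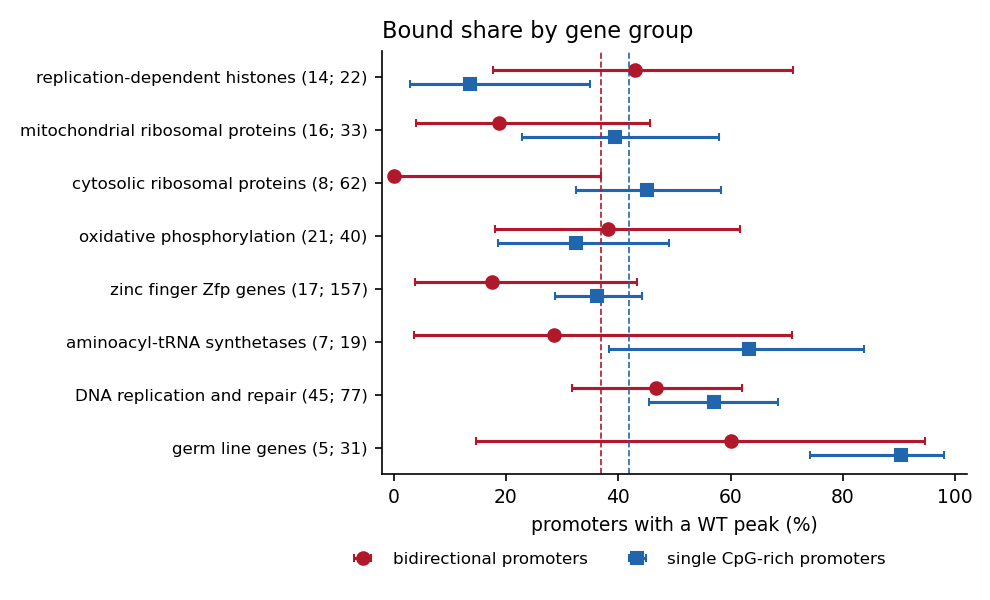
Percent of promoters with a WT peak (horizontal axis) for 8 gene lists, with the numbers of pairs and of single CpG-rich promoters in parentheses. Red circles are bidirectional promoters and blue squares single CpG-rich promoters with exact 95% intervals, the dashed lines mark 37% and 42% over all promoters of each kind, and the intervals overlap in every list.

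Of 17 textbook divergent pairs, 7 met the definition used here and 2 of them were bound. At Atm/Npat, a DNA damage kinase and an activator of histone gene transcription, the score was 141 and the summit 25 bp inside Atm. At Mcm4/Prkdc, a subunit of the replicative helicase and the catalytic subunit of a DNA repair kinase, the score was 55 and the summit between the TSSs. Both also belong to the DNA replication and repair list. Col4a4/Col4a3, Mrps12/Sars2, Brca1/Nbr1 and Mospd2/Fancb had no peak, and the CpG ratio was 0.456 at Col4a4/Col4a3 and 0.510 at Mospd2/Fancb, below the limit of 0.6.

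The motifs defined above were counted on both strands in the 300 bp centred on the midpoint of each pair, or on the TSS of a single promoter. The E-box was in 13% of bound pairs (9.44 to 17.4), 8.64% of unbound pairs (6.35 to 11.4), 10.3% of single CpG-rich promoters and 7.28% of all protein-coding promoters. The E2F motif was in 14% of bound (10.3 to 18.5) and 9.23% of unbound pairs (6.86 to 12.1), against 10.4% and 6.16%. For both motifs the intervals of bound and unbound pairs overlapped. Among single CpG-rich promoters, the E-box was in 13.6% of bound (12.4 to 14.8) and 7.99% of unbound ones (7.21 to 8.82). The E2F motif was in 12.2% (11.1 to 13.4) and 9.14% (8.31 to 10) of them.

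The ETS motif and the CCAAT box were frequent in pairs whether or not they were bound. The ETS motif was in 30.4% of bound and 26.9% of unbound pairs, against 17.5% of single CpG-rich promoters and 11.3% of all promoters. The CCAAT box was in 42.5% and 43.4% of pairs, against 32.6% and 35.7%. The GC box was in 68.9% of bound and 66.2% of unbound pairs, against 77.9% of single CpG-rich promoters and 45.8% of all promoters. The YY1 motif was in 4.01% of bound and 7.47% of unbound pairs (4.9% and 2.9%), the NRF1 motif in 6.02% and 6.88% (5.46% and 3.11%) and the TATA box in 3.68% and 5.3% (3.75% and 10.8%), where parentheses give single CpG-rich and all promoters.

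Around the summits themselves the E-box was in 17% of the 300 bp windows (13 to 21.7), close to the 18.5% at peaks of single CpG-rich promoters. It was in 22 of the 76 members of highest score (28.9%) and in 12 of the 76 of lowest score (15.8%). The E2F motif was in 23.7% and 14.5% of the same groups. The intervals of these groups overlapped for both motifs.

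No member overlapped a peak of the KO list, which held 44 peaks on these chromosomes. A count of 0 of 306 allows a share of up to 1.2% by the exact interval, and 43 of all 6916 WT peaks (0.622%) overlapped a KO peak. By the methods, replicates were pooled for WT and a single KO sample was used, and what this difference adds to the count of 0 was not tested.

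On the X chromosome 4 of 19 pairs were bound (21.1%, 6.05 to 45.6), against 295 of 789 on autosomes (37.4%, 34 to 40.9). The strongest was at Ribc1/Smc1a, with a score of 248 and its summit 51 bp inside Smc1a, the mitotic cohesin gene. Its paralogous pair on an autosome, Smc1b/Ribc2, was also bound. The other 3 were Ndufa1/Rnf113a1 (98), where Ndufa1 encodes a subunit of respiratory complex I, Idh3g/Ssr4 (94) and 4932442L08Rik/Apoo (68), the last with its summit between the TSSs. Among autosomes, chromosome 17 had the lowest share (19.6%) and chromosome 12 the highest (52.9%).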

How the data were processed

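KDM5C ChIP-Seq peaks of WT and KO cells were analysed, with the samples grouped by genotype from their titles. Per the methods and the processing notes, the authors aligned single-end reads of 50 bp to mm9 with Bowtie, discarded reads that did not map uniquely, and used MACS2 2.1.0.20140616 for peaks over input at a q-value below 0.1. The processing notes name Bowtie 1.1.2 and the methods another version. The labels describe conversion to epiblast-like cells, whereas the methods place day 2 later, so the exact stage is unsettled. The series text speaks of technical duplicates, and the methods of pooled WT replicates and a single KO sample. Fly chromatin added to each ChIP did not enter the peak calls.

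The 2 deposited lists held for each peak a score (10 times the −log10 q-value, decimals dropped), a fold enrichment over input as a ratio, the −log10 q-value and the summit offset. The score, fold enrichment and summit were used as the authors deposited them. The largest q-value of the WT list was 0.0977. No column was left unmapped.

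Pairs, windows, CpG ratios and motifs were computed with Python 3.11.15 and NumPy 2.4.6 from NCBIM37 and GENCODE M1, with positions counted from 1. A protein-coding gene's TSS was its outermost annotated one, an overlap needed at least 1 bp, and genes with another protein-coding TSS within 1 kb that formed no pair (1115) were left out of the single promoters. Intervals are exact Clopper-Pearson 95% intervals (SciPy 1.17.1). The pair search and overlap were tested on simulated data. Members and gene lists were chosen with earlier results of these data known. The text names the 10 members of highest and the 3 of lowest score, those on X, textbook pairs, up to 3 bound pairs of each gene list, and pairs with the most peaks, apart from a few items that are not reported here. Alternatives are given in the closing section.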

Additional observations from a re-analysis of the deposited data

How the results depend on the processing

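No paired analysis was possible because no result came from a test, with 1 list for either genotype. Of 33 alternative values for 5 results, 23 were counted as unchanged and 10 as moved. For the shares the limit was the exact interval, and no interval is given here for the number of members or the median score. With peaks of at least the median score alone, 167 members remained, and the bound share was 20.7% for pairs and 23.6% for single CpG-rich promoters. With the summit required in the window it was 35.1% and 38.1%. Including pairs whose TSSs cross gave 482 members and 27.4% of summits between the TSSs. Pairs at least 200 bp apart had 23.4% between. CpG-rich pairs alone had a bound share of 40.7%. Single promoters had 46.7% at a CpG ratio of at least 0.75 and a GC content of at least 55%, where pairs had 46.6% of 414, and 43.7% within 1 kb of the TSS. The share for pairs was thus under that for single promoters in each of these comparisons, by least at the stricter CpG limits, but the intervals overlapped. They were 17.9 to 23.6 and 22.7 to 24.6 at the median score, and 31.9 to 38.6 and 37 to 39.2 with the summit in the window. In the main result, over all pairs whether CpG-rich or not, they did not overlap (33.7 to 40.4 and 40.9 to 43.2). By CpG ratio neither kind was higher throughout. Pairs had 28% and single promoters 34.3% from 0.6 to 0.7, and 64.3% and 48.3% at 1 or more. The alternatives by each gene's own TSS, by unique 50 bp words and on autosomes alone were chosen after seeing the data, and none of them moved a share beyond its interval. The lists hold no counts, and the study states depth only as a minimum, so what depth adds to weak peaks near the q-value limit was not tested.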

Other observations

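Head-to-head genes whose outermost TSSs had crossed, so that the first transcribed stretches overlapped by at most 1 kb, were not bidirectional promoters by the definition used. There were 419 such pairs, with a median overlap of 354 bp, and 177 had a WT peak (42.2%, 37.5 to 47.1). Of the 178 peaks there, 90 had the summit within the shared stretch (50.6%, 43 to 58.1), which made up a mean of 25.3% of the window. At uncrossed pairs 13.7% of summits lay between the TSSs, in a stretch that was 14.7% of the window. In a crossed pair the shared stretch is downstream of both TSSs, and between uncrossed TSSs the sequence is upstream of both. The 2 shares come from the same list and were not tested against each other.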
